A study of Mus musculus with 27 samples.

Results

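The imprinted Dlk1-Dio3 miRNA cluster of mouse chromosome 12 was followed in the hippocampus of sham-operated and ovariectomised mice that received saline or xanthohumol. Members were the mature miRNAs that the deposited miRNA table placed on chromosome 12, leaving out those with fewer than 10 reads summed over all 12 miRNA libraries. Of 1387 mature miRNAs in the table, 144 lay on chromosome 12, 15 of these had fewer than 10 reads, and 129 were members. The label of the cluster held for 104 of the 129, which lay between Dlk1 and Dio3 and came from 56 hairpins. The other 25 lay elsewhere on the chromosome, among them miR-153-3p, miR-342-3p, miR-203-3p and miR-3068-5p, and they are described apart. After the low count filter of the test, 89 of the 104 domain members and 15 of the 25 others were left, out of 605 miRNAs tested in all.

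The study crossed surgery with treatment in ICR mice, an outbred strain. The 4 groups were sham operation with saline (sham saline), sham operation with xanthohumol (sham Xmo), ovariectomy with saline (OVX saline) and ovariectomy with xanthohumol (OVX Xmo). Xanthohumol, written Xmo in the labels, is a prenylated chalcone from the hop plant. RNA came from whole hippocampi that had been flash frozen, with 3 miRNA libraries in each group and, in separate mRNA libraries, 3 for sham saline and 4 for each other group. Age, dose, route and the interval after surgery are absent from the labels. Nothing ties a miRNA library to an mRNA library or states that replicates are separate animals, so p-values measure only the spread between these samples, which may be technical.

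The Dlk1-Dio3 domain is an imprinted region: its protein-coding genes Dlk1, Rtl1 and Dio3 are expressed from the paternal chromosome, and its long noncoding RNAs Meg3, Rian and Mirg from the maternal one. Most miRNAs of the domain are made from maternal transcripts, and many of them are enriched in neurons, where members such as miR-134 have been studied in dendrites and synapses. Of the 104 domain members here, 6 lay on the minus strand, opposite to Meg3, Rian and Mirg. A hairpin precursor is cut out of the primary transcript by Drosha and then by Dicer, and either strand, the 5p or the 3p arm, can be loaded as the mature miRNA, whose seed (bases 2 to 8) pairs with target mRNAs.

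The results turned on miR-412-5p and miR-127-3p, whose sequences are shown with the opposite arm of miR-412, as printed in the deposited table, with the seed in capitals.
miR-412-5p: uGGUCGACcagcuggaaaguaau
miR-412-3p: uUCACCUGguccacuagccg
miR-127-3p: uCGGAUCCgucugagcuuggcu
Both miR-412 arms are cut from 1 hairpin of 80 bases, shown as the table prints it with the 2 mature arms in capitals.
mir-412: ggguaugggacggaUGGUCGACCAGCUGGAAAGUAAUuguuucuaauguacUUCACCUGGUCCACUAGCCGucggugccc
In the RefSeq annotation of GRCm38.p6, miR-412-5p lies at chr12:109743303-109743325 on the plus strand, inside the span of the noncoding gene Mirg. miR-127-3p lies at chr12:109592888-109592909 on the plus strand, inside the span of Rtl1, which is transcribed from the minus strand, so miR-127 is antisense to it. No other miRNA in the table had the seed of miR-412-5p or that of miR-127-3p, and neither came within 3 mismatches of another mature miRNA.

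The other abundant domain members are shown with their seeds in capitals, because together with miR-127-3p they make up most of the cluster's signal.
miR-376a-3p: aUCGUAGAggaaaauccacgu
miR-411-5p: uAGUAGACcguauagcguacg
miR-434-3p: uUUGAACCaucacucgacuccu
miR-379-5p: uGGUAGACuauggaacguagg
miR-369-5p: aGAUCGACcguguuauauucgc
miR-300-3p: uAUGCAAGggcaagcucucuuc
miR-433-3p: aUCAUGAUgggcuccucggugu
miR-381-3p: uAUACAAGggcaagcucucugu
The 129 members carried 120 different seeds. Each of 9 seeds was shared by a pair of members and none by 3 or more. The shared seeds included GGUAGAC in miR-379-5p and miR-1193-5p, AUACAAG in miR-381-3p and miR-539-3p, and GGUUGAC in miR-1197-5p and miR-758-5p. In all, 10 members differed by at most 3 bases from another mature miRNA of the cluster: miR-300-3p and miR-381-3p, miR-376a-3p and miR-376b-3p, miR-376b-5p and miR-376c-5p, miR-379-3p and miR-411-3p, and miR-3070-3p and miR-3070-2-3p. How reads were divided within those pairs is uncertain.

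A short run of letters recurred across domain members with different seeds. Either UUGACC or UCGACC, searched on the mature strand, stood in 8 of 104 domain members (7.69%) and in 2 of 1243 miRNAs off chromosome 12 (0.161%). It lay at different distances from the 5′ end, as the capitals show in the 6 domain members of these that passed the low count filter.
miR-412-5p: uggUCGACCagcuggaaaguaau
miR-369-5p: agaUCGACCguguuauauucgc
miR-380-5p: auggUUGACCauagaacaugcg
miR-134-5p: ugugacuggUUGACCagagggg
miR-154-3p: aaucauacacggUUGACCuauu
miR-323-3p: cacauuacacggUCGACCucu
The match describes the letters only.

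Depth was 9660870 to 10962300 reads per miRNA library. Sham Xmo libraries (9660870 to 10022500) lay below sham saline libraries (10203100 to 10566200), and the OVX groups overlapped. Levels are given as CPM, counts per 1e+06 reads after TMM scaling of the libraries. The domain members spanned a wide range. Of the 104, 11 averaged at least 1000 CPM over the 12 libraries, 24 averaged 100 to 1000 CPM, 35 averaged 10 to 100 CPM, and 34 averaged less than 10 CPM. miR-127-3p alone took 42.9% of the domain's reads, and the 10 most abundant members took 82.5%. It ranked 8th among all miRNAs of the hippocampus libraries, with a mean of 28658 CPM.

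Levels differed along the domain. The 12 members within the span of Rtl1 held 54.0% of the domain's reads, chiefly miR-127-3p, with miR-434-3p at 3812 CPM and miR-433-3p at 1830 CPM. The 46 members in the stretch between Rian and Mirg held 30.4%, led by miR-376a-3p at 5157 CPM, miR-411-5p at 5059 CPM and miR-379-5p at 3601 CPM. The 25 members within Mirg held 12.5%, led by miR-369-5p at 2186 CPM. The 5 members within Rian held 1.77%, the 12 between Meg3 and Rtl1 held 0.678%, the 2 of mir-770 within Meg3 held 0.667%, and the 2 of mir-1247 beside Dio3 held 0.0281%.

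**Figure D1:**
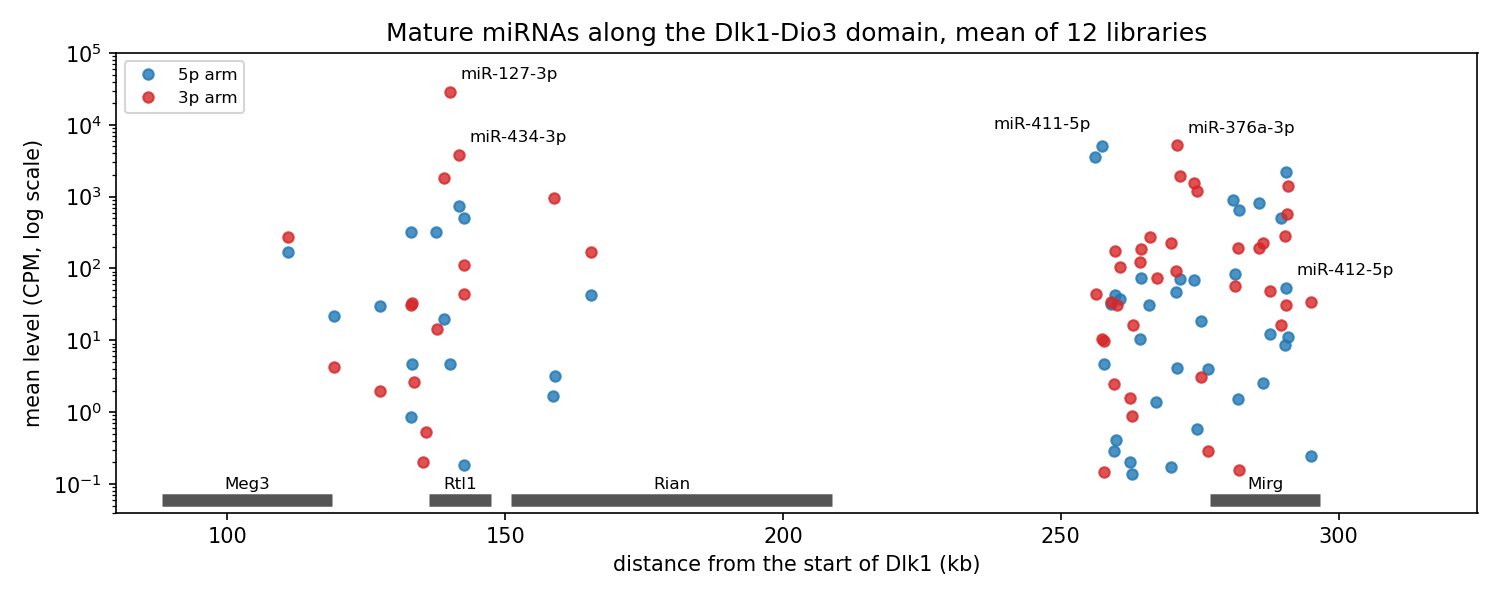
Mean level of each domain miRNA over 12 libraries (CPM, log scale) against its distance from the start of Dlk1 (kb), coloured by arm, with grey bars for the spans of Meg3, Rtl1, Rian and Mirg. The mir-1247 arms beside Dio3 are outside the range drawn. miR-127-3p, at 28658 CPM, stands above all other members, and miR-412-5p, at 54.1 CPM, lies among the middle of the Mirg group.

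Most hairpins favoured 1 arm strongly. Among 48 domain hairpins with both arms measured and at least 100 reads, the 3p arm held more reads in 32 and the 5p arm in 16. In 28 of the 48, 1 arm held over 90% of the reads. The extremes were mir-127, with 0.0163% of its reads on the 5p arm, and mir-485, with 99.98% on the 5p arm. mir-412 belonged to the less one-sided hairpins, with 63.3% of its reads on the 5p arm.

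Spread between libraries differed widely among members. Among the 89 domain members that passed the filter, the median coefficient of variation over all 12 libraries was 15.4%. The lowest was 5.62% for miR-370-5p (42.5 CPM), and the highest was 58.9% for miR-539-3p (3.04 CPM). The abundant miR-433-3p (1659 to 2071 CPM) and miR-381-3p (1325 to 1758 CPM) stayed within narrow limits, whereas miR-434-3p ranged from 2403 to 6042 CPM with no group apart from the others.

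Xanthohumol libraries held less miR-412-5p than saline libraries after both kinds of surgery. With saline the level was 74.1, 75.4 and 62.1 CPM after sham operation and 66.4, 66.6 and 67.6 CPM after ovariectomy. With xanthohumol it was 39.7, 41.3 and 38.2 CPM after sham operation and 46.7, 33.2 and 37.7 CPM after ovariectomy. All 6 Xmo libraries lay below all 6 saline libraries, and the surgery groups overlapped within each treatment. Over both surgeries the level was 39.5 ± 4.45 CPM with Xmo and 68.7 ± 5.08 CPM with saline (SD, n = 6 each). The Xmo main effect was -0.80 on the log2 scale (SE 0.10, 95% interval -1.02 to -0.57), and it passed the test (edgeR quasi-likelihood, adjusted p = 0.00232 over 605 miRNAs). Fewer cells that make miR-412-5p and less of it per cell cannot be told apart in whole tissue.

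miR-412-5p was the 1 domain member that passed in the Xmo main effect, where 4 of 605 miRNAs (0.661%) were called. Of the 89 domain members tested, 2 had no overlap between Xmo and saline libraries (2.25%), against 1.82% of all miRNAs tested. The median log2 change of the domain was -0.01, against 0.00 for all miRNAs tested (range in the domain -0.84 to 1.26). At an unadjusted p under 0.05 stood 11.2% of the domain members and 10.9% of all miRNAs. The fall of miR-412-5p stayed past the test in all 18 alternatives, with adjusted p between 7.04e-10 (DESeq2) and 0.0218 and log2 changes between -0.87 and -0.74.

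Within single surgeries, with 3 libraries a group, the size was similar and the call was not. In OVX mice the change with Xmo was -0.77 (SE 0.14, adjusted p = 0.0696 by edgeR), and in sham mice it was -0.83 (SE 0.14, adjusted p = 0.0716 by edgeR). Neither passed. Of 605 miRNAs, 1 was called in OVX mice (0.165%), where 46 (7.6%) had an unadjusted p under 0.05, 9 of them domain members, and 0 in sham mice, where 57 (9.42%) had an unadjusted p under 0.05, 4 of them domain members. Without the library OVX Xmo 1 both comparisons of miR-412-5p passed by edgeR, at adjusted p = 0.0247 and 0.0308, and DESeq2 called both, at adjusted p = 0.000379 and 0.000119. The difference between the Xmo changes was 0.06 (95% interval -0.39 to 0.50, adjusted p = 0.979 by edgeR).

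OVX Xmo against sham saline, which changes surgery and treatment together, gave -0.85 for miR-412-5p (SE 0.14), past the test by edgeR (adjusted p = 0.0315). It was 1 of 2 miRNAs called among 605 (0.331%) and the only domain member, and 5.62% of the domain members and of all miRNAs had an unadjusted p under 0.05. That call was lost when any library other than OVX Xmo 1 was left out, with adjusted p up to 0.332 by edgeR. The comparisons of miR-412-5p share libraries and are not separate evidence. The authors' deposited table gives miR-412-5p a q-value of 0.00443 for sham saline against sham Xmo and of 0.0433 for sham saline against OVX Xmo. For OVX saline against OVX Xmo the authors' deposited table gives a q-value of 0.0971.

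**Figure D2:**
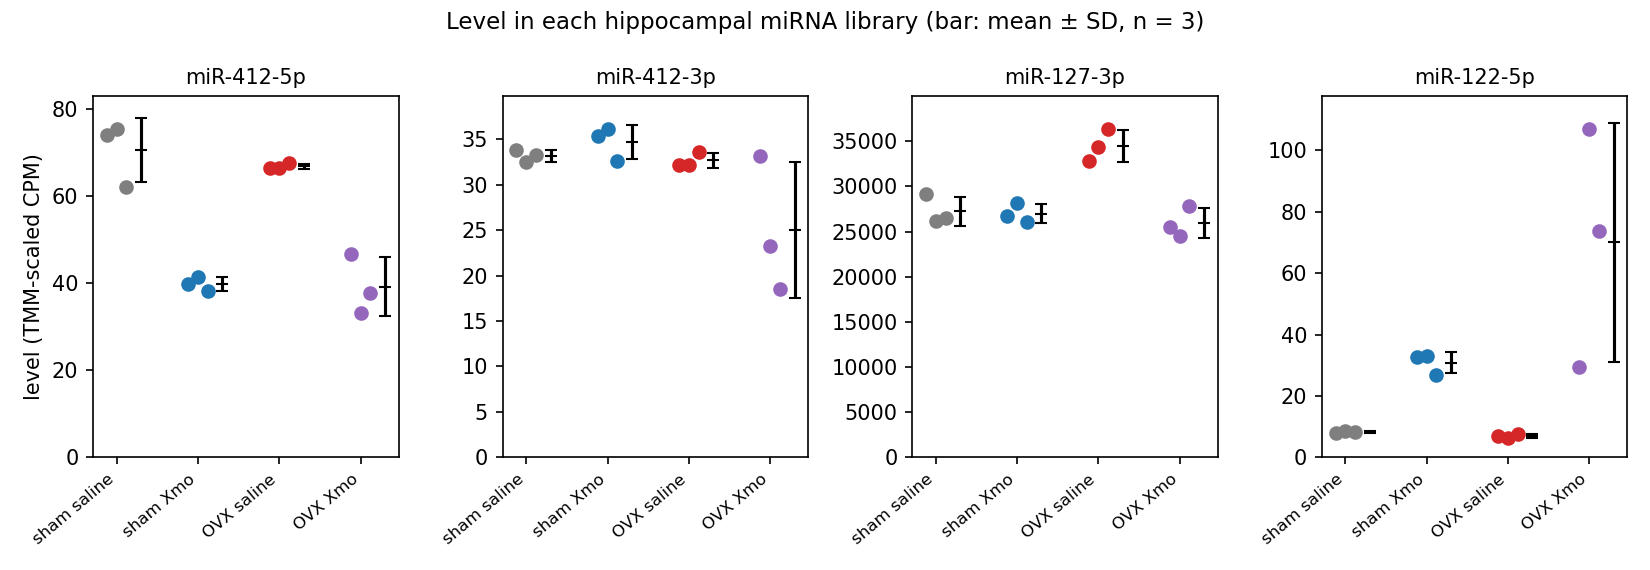
Level in each miRNA library (CPM after TMM scaling, linear axis from 0) for miR-412-5p, miR-412-3p, miR-127-3p and the liver miRNA miR-122-5p, with mean ± SD (n = 3). Every Xmo library is below every saline library for miR-412-5p and above every saline library for miR-122-5p, while OVX saline is the highest group for miR-127-3p.

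The opposite arm of the same hairpin gave another picture. In sham mice miR-412-3p was at 33.9, 32.5 and 33.2 CPM with saline and 35.4, 36.1 and 32.6 CPM with Xmo. In OVX mice it was at 32.2, 32.2 and 33.6 CPM with saline and 33.2, 23.3 and 18.5 CPM with Xmo. Sham Xmo overlapped sham saline, and only OVX Xmo 2 and OVX Xmo 3 lay below the other libraries. The Xmo main effect of miR-412-3p was -0.16 (95% interval -0.45 to 0.12, adjusted p = 0.716 by edgeR). With saline the 5p arm held 67.9% ± 2.46 of the hairpin's reads in sham mice and 67.2% ± 0.355 in OVX mice. With Xmo it held 53.4% ± 0.563 in sham mice and 61.4% ± 4.89 in OVX mice (SD, n = 3 for each value). The 3 sham Xmo libraries (52.9% to 54.0%) were below all saline libraries (65.1% to 69.9%), and in OVX Xmo 2 libraries were at 58.5% and 58.8% and the other at 67.1%. The difference between the 2 arms was not tested. The hairpin's arm share had the 4th largest difference between group means among 55 member hairpins (14.5 percentage points), and the median over the domain was 1.86.

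The hairpins beside mir-412 are packed closely in Mirg, with 52 bases between mir-409 and mir-412 and 49 bases between mir-412 and mir-369. The log2 change was -0.10 for miR-409-3p (95% interval -0.31 to 0.11), -0.14 for miR-369-5p (-0.39 to 0.11) and -0.20 for miR-410-3p (-0.48 to 0.07). miR-369-3p was at 0.09 (-0.21 to 0.39), and the low miR-409-5p had a wide interval (-1.18 to 0.68). miR-541-3p, farther upstream in Mirg, was higher at 0.51 (0.08 to 0.95), with an unadjusted p = 0.025 and adjusted p = 0.373 by edgeR. miR-541-5p, the arm with 96.9% of that hairpin's reads, was at -0.18 (-0.88 to 0.52). None of these passed. Of the other members that carry UUGACC or UCGACC, the 5 tested ranged from -0.25 to 0.04, with miR-323-3p lowest (adjusted p = 0.343 by edgeR).

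**Figure D3:**
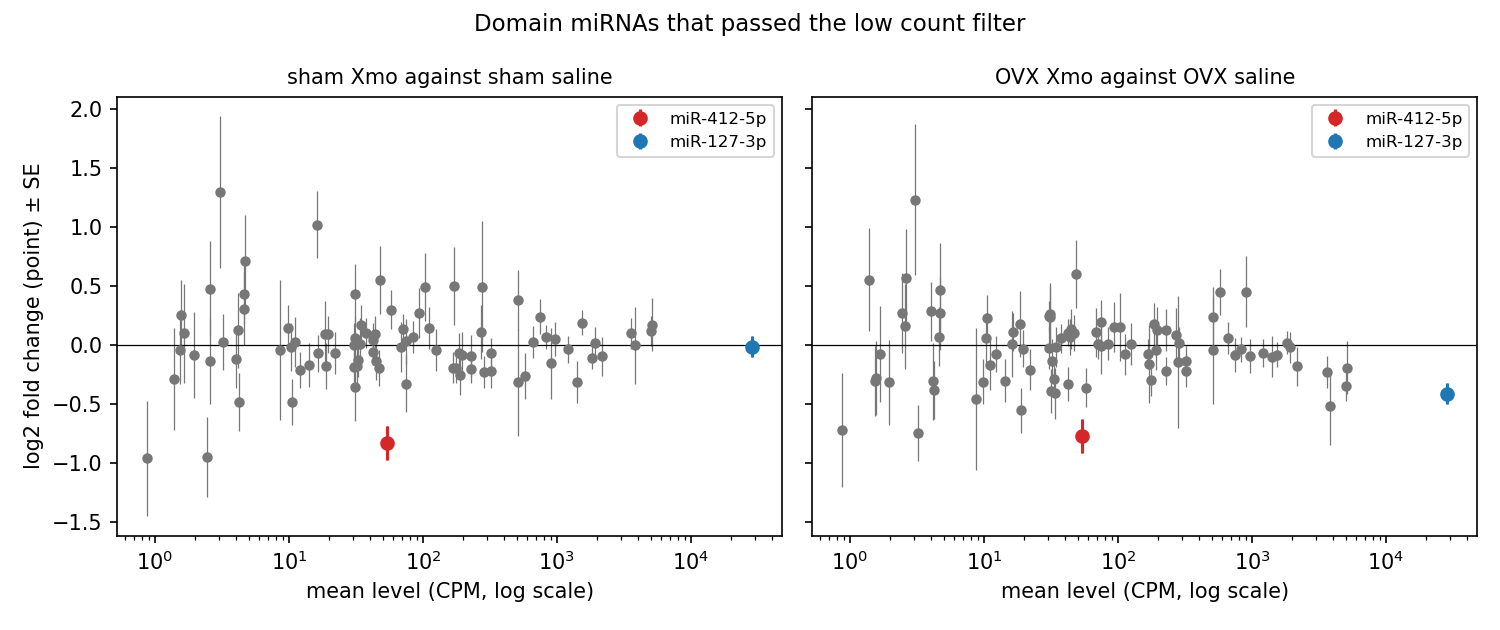
Log2 fold change of Xmo against saline (± SE) for the 89 domain miRNAs that passed the low count filter, in sham mice (left) and OVX mice (right), against mean level (CPM, log scale). miR-412-5p is at -0.83 and -0.77 with an SE of 0.14, and miR-127-3p is at -0.01 in sham mice and -0.41 in OVX mice.

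Markers of other cells were read in the same libraries. Neuronal miRNAs (5 of 5 detected, among them miR-124-3p and miR-9-5p) summed to 104535 to 133178 CPM, with overlapping ranges in all groups, above every other list. The lists for glia (3 of 3), choroid plexus (2 of 2), blood (3 of 3), vessel wall (3 of 3), endocrine cells (2 of 2) and muscle (3 of 3) overlapped between all Xmo and all saline libraries. The choroid plexus sum spread widely within groups, at 9605 to 21222 CPM in sham saline and 7767 to 43338 CPM in sham Xmo. It was at 8218 to 50575 CPM in OVX saline and 8607 to 50772 CPM in OVX Xmo. Within sham mice the muscle sum was 46.6 to 61.1 CPM with Xmo and 66.4 to 72.0 CPM with saline, without overlap. Single markers hidden in the sums also separated in sham mice. The choroid plexus miR-211-5p was at 7.22 to 10.7 CPM with saline and 16.0 to 50.3 CPM with Xmo. The oligodendrocyte miR-219a-2-3p was at 2860 to 2990 CPM and 1879 to 2648 CPM in that order, and the endothelial miR-126a-3p at 19794 to 24620 CPM and 16925 to 19228 CPM. In OVX mice these 3 overlapped between treatments, while the neuronal miR-9-5p (higher with Xmo) and miR-128-3p (lower with Xmo) did not. The part of these markers in the miR-412-5p result was not tested. No listed miRNA was at 0 in all libraries of a group. The liver list holds miR-122-5p alone, the miRNA that dominates hepatocytes. With saline it was at 7.80 to 8.45 CPM in sham mice and 6.40 to 7.70 CPM in OVX mice. With Xmo it was at 26.8 to 32.9 CPM and 29.4 to 106.9 CPM. Its Xmo main effect was 2.62 (SE 0.26, adjusted p = 0.000391 by edgeR), and the part it plays in the miR-412-5p result was not tested.

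miR-127-3p, the most abundant member, was highest in OVX saline. With saline its level was 29113, 26156 and 26457 CPM after sham operation and 32786, 34309 and 36323 CPM after ovariectomy. With Xmo it was 26770, 28127 and 26076 CPM after sham operation and 25459, 24538 and 27782 CPM after ovariectomy. All 3 OVX saline libraries lay above the other 9, which overlapped with each other. OVX saline exceeded sham saline by 0.34 on the log2 scale (SE 0.09, 95% interval 0.15 to 0.53), and OVX Xmo was below OVX saline by a log2 difference of -0.41 (SE 0.09, -0.61 to -0.22). Neither passed by edgeR (adjusted p = 0.485 and 0.139), while DESeq2 gave adjusted p = 0.0307 and 0.00212. The authors' deposited table gives smaller log2 changes for miR-127-3p, 0.12 (q-value 0.9996) for ovariectomy with saline and -0.02 (q-value 0.998) for Xmo in OVX mice. The interaction was -0.40 (95% interval -0.67 to -0.12, adjusted p = 0.647 by edgeR).

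The miR-127-3p pattern depended on which deposited count was read. The table holds a further count column, headed exp, whose values fall below the reads at high levels by a rule the sources used here do not state. For miR-127-3p that column was 29.4% to 37.9% of the reads in saline libraries and 40.8% to 43.1% in Xmo libraries. On it, OVX saline exceeded sham saline by 0.10, against 0.34 on the reads. OVX Xmo differed from OVX saline on that column by 0.01, against -0.41 on the reads. The Xmo main effect was 0.10 on that column, in the other direction from the reads. On the reads it was -0.21 (SE 0.06, adjusted p = 0.273 by edgeR). For miR-412-5p the column was 98.8% to 100% of the reads, and its changes were nearly the same on both. Over the whole table the column held 38.2% to 40.6% of the reads in saline libraries and 42.6% to 45.1% in Xmo libraries. Those ranges did not overlap, so this difference between whole libraries followed treatment and cannot be told apart from it. Its part in the Xmo results, including that of miR-412-5p, was not tested.

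On the reads, the share of the domain was highest in OVX saline and lowest in OVX Xmo, as was the mean level of miR-127-3p. In sham mice it was 6.43% ± 0.227 with saline and 6.71% ± 0.428 with Xmo, and in OVX mice 7.36% ± 0.160 with saline and 6.23% ± 0.282 with Xmo (SD, n = 3 per group). The OVX saline libraries (7.19% to 7.51%) lay above those of all other groups (6.04% to 7.16%). Without miR-127-3p the shares were 3.74% ± 0.222, 3.96% ± 0.343, 3.96% ± 0.106 and 3.63% ± 0.1002 in the same order, and OVX saline overlapped sham saline and sham Xmo. All OVX saline libraries (3.90% to 4.09%) still lay above all OVX Xmo libraries (3.56% to 3.74%). The share is a sum over members and was given no test.

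**Figure D4:**
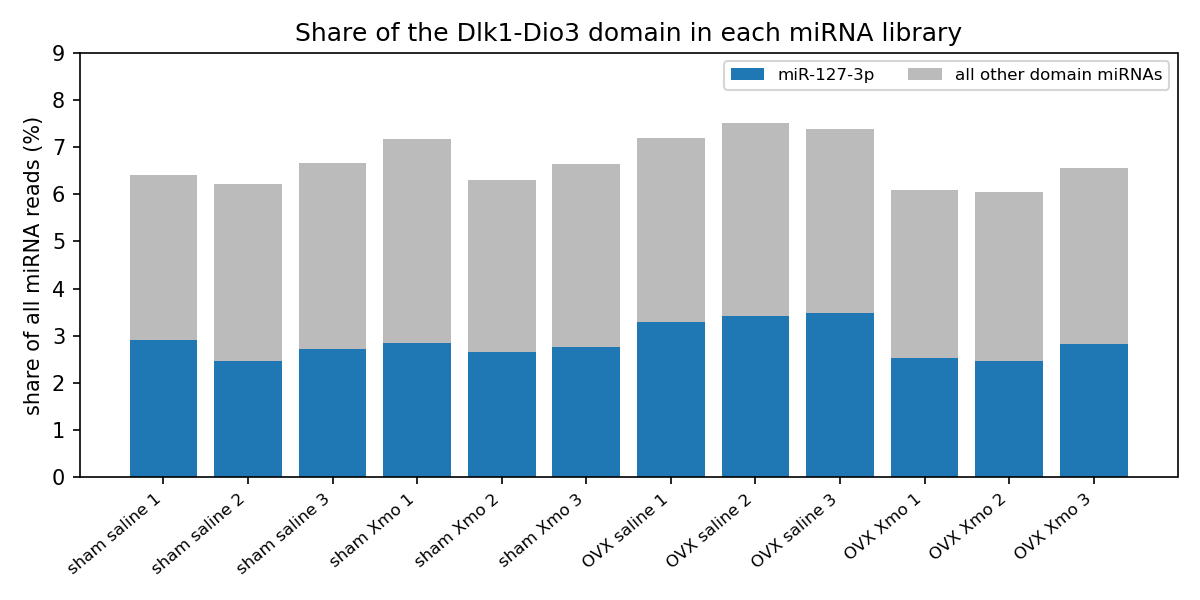
Share of all miRNA reads (%) taken by the domain in each of the 12 libraries, as stacked bars from 0 for miR-127-3p (blue) and all other domain miRNAs (grey). The 3 OVX saline libraries reach 7.19% to 7.51%, and most of their lead over the others is in the blue part.

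Ovariectomy alone called no miRNA by edgeR, in the domain or elsewhere. Comparing OVX saline with sham saline, 0 of 605 miRNAs (0%) passed by edgeR and 28 (4.63%) had an unadjusted p under 0.05, of which 4 were domain members. DESeq2 called 4 of 604 miRNAs with an adjusted p (0.662%), of which 1 was a member, miR-127-3p. Of the domain members 15.7% had no overlap between the groups, against 12.1% of all miRNAs tested, and the domain median was -0.06 against -0.02. After miR-127-3p the smallest p values belonged to miR-134-3p and miR-3069-3p. miR-134-3p was at 49.7, 59.2 and 39.2 CPM after sham operation and 70.4, 66.2 and 64.8 CPM after ovariectomy, without overlap. Its log2 difference was 0.44 (SE 0.16, adjusted p = 0.860 by edgeR). The 5p arm, with 59.4% of the hairpin's reads, did not share this difference. miR-134-5p averaged 84.3 CPM after sham operation and 80.9 CPM after ovariectomy, with overlap (-0.06, adjusted p = 0.985 by edgeR). miR-3069-3p, which lies outside the domain, averaged 2.83 CPM and 4.16 CPM in the same order, with adjusted p = 0.886 by edgeR.

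In the main effect of ovariectomy, 0 of 605 miRNAs (0%) were called by edgeR and 22 (3.64%) had an unadjusted p under 0.05. No domain member separated all OVX from all sham libraries. The change of miR-412-5p with ovariectomy was -0.05 (95% interval -0.27 to 0.17). The smallest p values among members belonged to miR-127-3p, miR-539-5p and miR-3071-3p. OVX Xmo against sham Xmo also called 0 (0%), with 20 miRNAs (3.31%) at an unadjusted p under 0.05, and 4.49% of domain members without overlap against 7.44% of all. miR-342-3p, miR-412-3p and miR-539-5p had the smallest p among members there, with log2 differences of 0.28, -0.47 and -0.46, each at adjusted p = 0.999 by edgeR.

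Several further members differed with Xmo within 1 surgery without passing. In sham mice miR-541-3p, from a hairpin in Mirg near mir-412, was at 7.71, 9.86 and 14.9 CPM with saline and 20.1, 18.7 and 26.9 CPM with Xmo, without overlap. The log2 difference was 1.02 (SE 0.28, adjusted p = 0.311 by edgeR, 0.0404 by DESeq2). In OVX mice the same miRNA was at 12.6 to 18.7 CPM with saline and 13.6 to 21.1 CPM with Xmo, and the groups overlapped. The 5p arm, which held 96.9% of the hairpin's reads, overlapped between treatments after both kinds of surgery. The log2 difference of miR-541-5p with Xmo was -0.32 in sham mice and -0.04 in OVX mice (adjusted p = 0.856 and 0.981 by edgeR).

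miR-342-3p, which lies on chromosome 12 outside the domain, was at 680, 760 and 672 CPM in sham mice given saline and 535, 546 and 528 CPM in those given Xmo. The groups did not overlap, and the log2 difference was -0.39 (SE 0.10, adjusted p = 0.311 by edgeR, 0.0211 by DESeq2). In OVX mice it was at 659 to 679 CPM with saline and 594 to 685 CPM with Xmo, with overlap. The Xmo main effect of miR-342-3p was -0.22 (SE 0.07, adjusted p = 0.342 by edgeR). In all, 16.9% of the domain members had no overlap between sham Xmo and sham saline, against 14.2% of all miRNAs tested.

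In OVX mice miR-1188-5p, from a hairpin within Rian, was at 3.94, 3.15 and 5.32 CPM with saline and 2.64, 2.75 and 2.0 CPM with Xmo. The log2 difference was -0.74 (SE 0.24, adjusted p = 0.490 by edgeR), at a low level. miR-539-5p was at 16.6, 13.2 and 12.1 CPM in OVX Xmo and 20.4, 22.8 and 21.9 CPM in sham saline (log2 difference -0.63, SE 0.19, adjusted p = 0.531 by edgeR). miR-323-3p was at 169, 152 and 144 CPM in OVX Xmo and 188, 196 and 189 CPM in sham saline (-0.30, SE 0.13, adjusted p = 0.820 by edgeR). Both of these separated the groups without passing. Non-overlap held for 16.9% of domain members between OVX Xmo and OVX saline, against 15.4% of all miRNAs, and for 12.4% against 11.6% between OVX Xmo and sham saline.

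In the interaction, which asks whether the Xmo change differed between OVX and sham mice, 0 of 605 miRNAs (0%) passed by edgeR and 42 (6.94%) had an unadjusted p under 0.05, of which 9 were domain members. The members with the smallest p were miR-127-3p, miR-134-3p (log2 difference -0.66, SE 0.23) and miR-3069-3p (-0.86, SE 0.32), each at adjusted p = 0.647.

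Arm shares differed most between groups in mir-770, mir-1197 and mir-539. In mir-770, which lies in Meg3, the 5p arm held 83.7% of the reads in the library sham saline 3 and 32.6% to 41.2% in the other 11. This followed miR-770-3p, at 32.9 CPM in sham saline 3 and 254 to 371 CPM elsewhere, while miR-770-5p was at 146 to 201 CPM in all 12 libraries. mir-1197 had 333 reads over all libraries, too few to compare groups. In mir-539 the 5p share averaged 92.8% and 91.9% in sham and OVX mice with saline and 81.7% and 76.6% with Xmo. These shares depend on few reads of miR-539-3p, which had the highest coefficient of variation of the domain members tested (58.9%). It averaged 1.75 and 1.82 CPM in sham and OVX mice with saline and 4.33 and 4.27 CPM with Xmo. The treatments overlapped for miR-539-3p in OVX mice but not in sham mice. Neither change of miR-539-3p passed (adjusted p = 0.692 in OVX and 0.565 in sham mice by edgeR), and the share was not tested. The other arm, miR-539-5p, differed with Xmo by -0.55 in OVX mice, without overlap, and by -0.18 in sham mice, with overlap. The Xmo main effect was 1.26 for miR-539-3p and -0.36 for miR-539-5p (adjusted p = 0.342 and 0.343 by edgeR).

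The genes of the locus were read in the 15 mRNA libraries. Mitochondrially encoded genes took 20.2% to 35.4% of the counts in sham saline, 15.04% to 20.6% in sham Xmo, 12.4% to 17.5% in OVX saline and 13.1% to 17.8% in OVX Xmo. The lowest sham saline library thus lay below the highest sham Xmo library, and the part of this in the gene results was not tested. Levels per length, as the authors' deposited TPM, ordered the noncoding RNAs Meg3 (687 to 1907 TPM), Rian (340 to 1228 TPM) and Mirg (39.3 to 123 TPM) above the protein-coding Rtl1 (1.46 to 3.27 TPM), Dlk1 (0.197 to 2.43 TPM) and Dio3 (0.178 to 2.35 TPM). Reads of the overlapping miRNA genes, and of Rtl1 and its antisense transcript, cannot be told apart where counting did not use strand, and the sources used here do not state it.

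None of the 6 genes of the locus passed in any of the 4 mRNA comparisons by edgeR. The background was 6.24% of 19969 genes called for OVX saline against sham saline, 1.51% for sham Xmo against sham saline, 0.01% for OVX Xmo against sham Xmo and 0% for OVX Xmo against OVX saline. Mirg, the host span of mir-412, was at 44.6 ± 12.1 CPM in sham saline (n = 3) and 41.8 ± 4.15 CPM in OVX saline (SD, n = 4). With Xmo it was at 40.1 ± 6.90 CPM after sham operation and 41.5 ± 9.88 CPM after ovariectomy (SD, n = 4 for each), with overlap between all groups. In sham mice, Mirg differed with Xmo by -0.15 (95% interval -0.58 to 0.27), Meg3 by -0.13 (-0.40 to 0.14), Rian by 0.03 (-0.19 to 0.26) and Rtl1 by -0.03 (-0.38 to 0.32). In saline mice, Mirg differed with ovariectomy by -0.09 (-0.52 to 0.33), Meg3 by -0.08 (-0.36 to 0.19), Rian by 0.08 (-0.15 to 0.30) and Rtl1 by 0.19 (-0.17 to 0.54).

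On the deposited TPM the sham saline group had the lowest mean for Meg3, Rian, Mirg and the protein-coding Rtl1. On counts this held for Rian alone, at 581 CPM against 594 to 629 CPM in the other groups. Meg3 was at 813 ± 134 TPM in sham saline (n = 3) and 1463 ± 107 TPM in OVX saline (n = 4). A limma fit of log2(TPM + 0.1) put OVX saline above sham saline by 0.86 for Meg3 and 0.99 for Rian (adjusted p = 0.00534 and 0.0063). In that fit Rtl1 differed by 0.77 (adjusted p = 0.0138 by limma), and Mirg, at 0.70, did not pass. On that scale the median over all genes tested was itself 0.61, with 9609 of 19969 genes called, which leaves 0.25 for Meg3 and 0.37 for Rian relative to the median.

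Dlk1 and Dio3, which encode a Notch-like membrane protein and the deiodinase that inactivates thyroid hormone, had the largest fold changes at very low levels. Dlk1 was at 5.52, 4.08 and 0.985 CPM in sham saline and at 0.526 to 1.34 CPM after ovariectomy with saline, and the groups overlapped. The log2 difference was -1.96 (SE 0.56, adjusted p = 0.0510 by edgeR, 0.00901 by DESeq2). Dio3 was at 2.24, 0.625 and 0.698 CPM in sham mice given saline and 0.139 to 0.474 CPM in those given Xmo, without overlap (-2.26, SE 0.60, adjusted p = 0.0683 by edgeR). Without sham Xmo 1 it passed, at adjusted p = 0.0396 by edgeR. In the same comparison Dlk1 differed by -1.86 (adjusted p = 0.0952 by edgeR, 0.0186 by DESeq2).

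**Figure D5:**
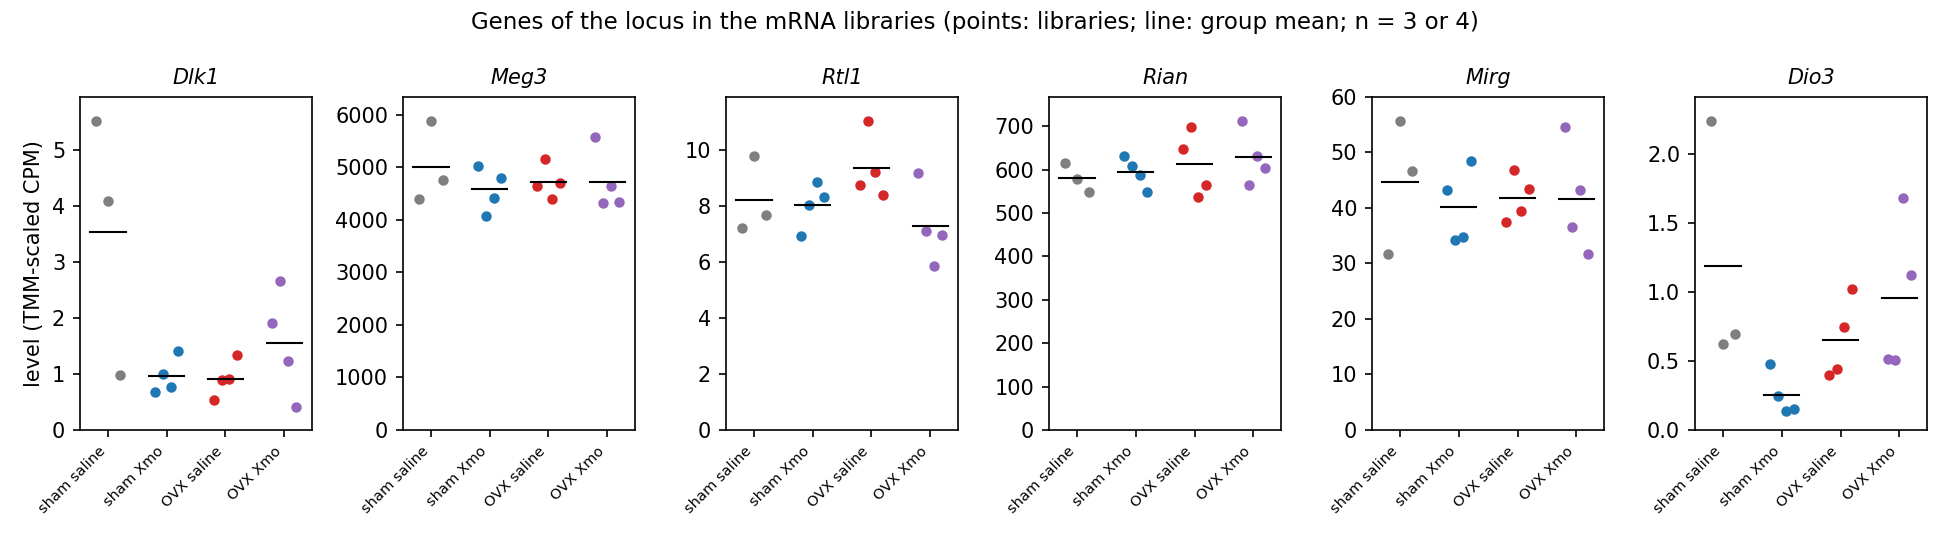
Level of Dlk1, Meg3, Rtl1, Rian, Mirg and Dio3 in each of the 15 mRNA libraries (CPM after TMM scaling, linear axes from 0), with a line at each group mean. The groups overlap for Meg3, Rtl1, Rian and Mirg, and Dlk1 is highest in 2 of the 3 sham saline libraries.

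A further 4 gene lists were read: 8 neighbours of the locus, 8 regulators of imprinting and transcription at the locus, 8 genes of miRNA biogenesis and 10 reported targets of domain miRNAs. In OVX saline against sham saline, 6.24% of all 19969 genes were called. Of the 10 targets, 1 was higher, 0 were lower and 9 did not pass (median 0.15, against 0.01 for all genes). It was Cnih2, an auxiliary subunit of AMPA receptors, at 263 ± 21.4 CPM in sham saline (n = 3) and 353 ± 27.0 CPM in OVX saline (SD, n = 4), a log2 difference of 0.42 (SE 0.12, adjusted p = 0.0494 by edgeR). That call was lost in 12 of 15 fits that left out 1 library, and was kept without sham Xmo 1, sham Xmo 3 or OVX Xmo 4.

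In sham Xmo against sham saline, 1.51% of all 19969 genes were called. Of the 8 biogenesis genes, 1 was lower, 0 were higher and 7 did not pass (median 0.08, against 0.03 for all genes). It was Drosha, the nuclease that cuts primary miRNA transcripts. Drosha was at 124, 113 and 136 CPM with saline and 94.7, 94.8, 86.1 and 95.3 CPM with Xmo, without overlap, a log2 difference of -0.43 (SE 0.10, adjusted p = 0.0447 by edgeR). The call was lost in 8 of 15 fits that left out 1 library, and kept without sham saline 2, sham Xmo 1, OVX saline 1, OVX saline 4, OVX Xmo 1, OVX Xmo 2 or OVX Xmo 4. Drosha overlaps another annotated gene, AC133189.1, as Cnih2 overlaps Yif1a, and reads shared by such genes cannot be told apart without strand. On log2 TPM the difference was 0.15, and -0.40 relative to the median of all genes on that scale. OVX Xmo against OVX saline gave 0.13 for Drosha (adjusted p = 0.998 by edgeR). The neighbours and regulators had 0 called in every comparison, as did all 4 lists in OVX Xmo against OVX saline and in OVX Xmo against sham Xmo.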

How the data were processed

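Per the labels' protocols, Trizol was used for RNA and a TruSeq RNA kit, from 1 ug of total RNA, for the libraries. FastQC 0.11.2, Bowtie2 2.3.2, StringTie 1.3.3b, Trimmomatic 0.36 and GRCm38.p6 appear, without roles, in the submitters' processing notes. The deposited miRNA table holds read counts per mature miRNA, a further count column (exp), and, as its headers name them, the authors' log2 fold changes with a p-value and a q-value. The deposited gene table holds counts and TPM. Per-sample values in 12 further columns match no sample and were not used.

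Counts were filtered with filterByExpr, scaled by TMM and fitted in edgeR 4.0.16 (quasi-likelihood, all 4 groups, R 4.3.3), which left 605 miRNAs and 19969 genes. There were 8 miRNA and 4 mRNA comparisons, with Benjamini-Hochberg adjustment over all features of a comparison and a threshold of 0.05. DESeq2 1.42.0 and limma 3.58.1 served as alternatives. Main effects average both levels of the other factor. The method was tested on simulated data. Mature positions came from RefSeq (GRCm38.p6): 124 members matched by name and sequence and 5 by hairpin. Library totals were 9660870 to 10962300 reads in miRNA libraries, and 20848661 to 39140593 gene counts in mRNA libraries. Intervals are 95% intervals from the fit.

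Members and lists were chosen with earlier results of these data known. Named members are miR-412-5p and miR-127-3p, any past the test, the 3 of smallest p per comparison, the 10 most abundant, those of lowest and highest coefficient of variation, shared seeds, the 3 hairpins with the largest differences in arm share, the genes of the locus and listed genes past the test. The neighbours of mir-412, the motif, miR-770-3p and miR-122-5p were chosen after their values were seen.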

Additional observations from a re-analysis of the deposited data

Results flagged for a closer look

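In groups of 4 mRNA libraries, 24 sets of values (8 genes in 3 groups) were searched for a library far from the other 3, which chance gives in about 1 of 20 groups. Drosha stood out in 2 of them. It was at 86.1 CPM in sham Xmo 3, against 94.7, 94.8 and 95.3 CPM in the other sham Xmo libraries. It was at 88.0 CPM in OVX saline 1, against 110.0, 111.4 and 112.9 CPM in the other OVX saline libraries. Groups of 3, which include all miRNA groups, were not searched.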

How the results depend on the processing

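The fall of miR-412-5p with Xmo over both surgeries kept its direction and passed in all 18 alternatives. The number of members called was less stable. For OVX saline against sham saline (0 called) DESeq2 called 1, of 4 called among all miRNAs. For OVX Xmo against OVX saline (0 called) DESeq2 called 2 (of 3 among all miRNAs) and the exp column 1 (of 4), and leaving out single libraries gave 0 to 1. For sham Xmo against sham saline (0 called) DESeq2 called 3 (of 6) and the exp column 1 (of 4), and leaving out single libraries gave 0 to 1. For OVX Xmo against sham saline (1 called) DESeq2 size factors, no low count filter, a fit of only the groups compared and the replicate block each gave 0, and leaving out single libraries gave 0 to 1.

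Among listed genes, OVX saline against sham saline (1 called) gave 0 with DESeq2 size factors, without the filter and with the replicate block, 3 with DESeq2 (13.2% of all genes called), 2 with only the groups compared and 22 on log2 TPM (48.1% of all genes), with 0 to 2 on leaving out libraries. Sham Xmo against sham saline (1 called) gave 0 without the filter, with only the groups compared and with the block, 4 with DESeq2 (7.12% of all genes) and 15 on log2 TPM (36.8%), with 0 to 2 on leaving out libraries. The TPM fit was chosen after seeing the data; its median over all genes was 0.61 and 0.54 in these comparisons. The cause was not tested.

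The share of the domain in sham saline, sham Xmo, OVX saline and OVX Xmo was 10.55%, 10.34%, 11.18% and 9.91% on the exp column, and 7.18%, 7.49%, 8.20% and 6.99% without the most abundant miRNA of each library. OVX saline was highest and OVX Xmo lowest each time. On the exp column miR-127-3p itself differed by only 0.0132 on the log2 scale between OVX Xmo and OVX saline.

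Some reversals were of small changes, but those of miR-127-3p with Xmo in OVX mice (-0.41) and of Drosha (-0.43) were not. For miR-127-3p the exp column gave 0.0132 in OVX Xmo against OVX saline, 0.12 in OVX Xmo against sham saline, 0.0955 in the Xmo main effect and 0.18 in sham Xmo against sham saline. In the last, DESeq2 size factors gave 0.0034, scaling on miRNAs outside chromosome 12 gave 0.0076, DESeq2 gave 0.0034, and leaving out libraries gave -0.0396 to 0.0517. For miR-412-5p in OVX Xmo against sham Xmo, no filter gave 0.0204 and leaving out libraries gave -0.19 to 0.0794. Leaving out libraries gave -0.12 to 0.15 in its interaction and -0.13 to 0.0062 in the ovariectomy main effect.

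On log2 TPM, OVX saline against sham saline gave 0.86 for Meg3 and 0.70 for Mirg, and sham Xmo against sham saline gave 0.65 for Meg3, 0.48 for Rtl1, 0.55 for Mirg and 0.15 for Drosha. Leaving out libraries in the first gave -0.17 to 0.0410 for Meg3, -0.0102 to 0.12 for Rian, -0.29 to 0.0900 for Mirg. In the second it gave -0.12 to 0.10 for Rtl1, -0.00821 to 0.0776 for Rian, -0.35 to 0.0291 for Mirg.

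Deviations of same-numbered libraries correlated at -0.52 to 0.40 over 18 miRNA pairs, and those of differently numbered libraries at -0.36 to 0.34 over 36 pairs. In mRNA libraries the ranges were -0.21 to 0.19 and -0.19 to 0.26 in the same order. With so few libraries a group, these values do not settle whether replicate numbers pair the samples. A fit of only the groups compared was not run for the interaction and main effects, which use all groups. Having 3 libraries a group limits the precision, and members under a few CPM rest on few reads.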
